A study of Mus musculus with 48 samples.

Results

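Liver RNA collected at 12 h was compared with liver RNA collected at 8 h in a time course of 48 RNA sequencing libraries. The comparison holds the 16 libraries with these collection times on their labels, 8 at 12 h and 8 at 8 h, with 4 Bmal1 knockout (KO) and 4 control (WT) mice on each side. KO mice carried Bmal1f/f and the transgene aP2-Cre, a Cre driver aimed at adipocytes, and WT mice were littermate controls, whose alleles the labels do not spell out. All were C57BL/6 mice, 4 to 6 months old per the design text, held in constant darkness for 36 h and killed in darkness. The cell type label reads adipocyte while tissue and source read liver. Of 12 hepatocyte markers all 12 were measured, with summed levels of 51520 to 76580 CPM (counts scaled to the size of the library) at 12 h and 36560 to 65160 CPM at 8 h, and the samples were treated as liver. Of 10 adipocyte markers, Adipoq, Lep, Plin1, Cidea, Cfd and Retn totalled 29, 2, 4, 6, 41 and 4 counts over the 16 libraries and were too low to test. The other 4 were counted more, with totals of 194396 for Car3, 17711 for Plin4, 3942 for Lpl and 1951 for Fabp4. Each time is 1 set of mice, so the time of day and the collection session cannot be told apart.

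The circadian clock of liver cells is a feedback loop in which BMAL1 (gene Arntl) with CLOCK or NPAS2 activates genes through E-boxes, and the PER and CRY proteins made from some of those genes repress that activity. A linked loop sets REV-ERB repressors (Nr1d1, Nr1d2) against ROR activators such as Rora at shared elements. Many genes of lipid, glucose and drug metabolism follow the clock, feeding and glucocorticoid hormone in liver over the day. The comparison asks which transcripts changed over 4 h in the middle of this cycle, in both genotypes together, and whether they did so alike in both.

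Promoters of 3 genes that rose between the times are shown because they hold E-box letters of the kind that the clock's activators bind. Each is the stretch of 200 bases before the RefSeq start in GRCm38.p6, written 5′ to 3′ on the gene's strand, with the E-box CACGTG and the E′-box, CACGTT on either strand, in capitals.
Cry1: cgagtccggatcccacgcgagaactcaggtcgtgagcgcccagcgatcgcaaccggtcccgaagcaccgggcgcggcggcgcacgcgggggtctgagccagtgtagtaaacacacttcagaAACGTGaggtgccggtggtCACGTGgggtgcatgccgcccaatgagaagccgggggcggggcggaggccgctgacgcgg
Tspan4: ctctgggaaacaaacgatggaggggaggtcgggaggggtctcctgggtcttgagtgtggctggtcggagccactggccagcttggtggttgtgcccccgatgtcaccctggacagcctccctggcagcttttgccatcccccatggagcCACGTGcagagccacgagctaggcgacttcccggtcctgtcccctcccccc
Ddit4: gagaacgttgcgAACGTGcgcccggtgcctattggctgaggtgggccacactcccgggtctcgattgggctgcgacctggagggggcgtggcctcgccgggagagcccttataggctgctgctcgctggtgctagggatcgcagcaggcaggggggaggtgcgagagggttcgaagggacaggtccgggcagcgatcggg
The Cry1 stretch is chr10:85185055-85185254 on the minus strand, with its E-box 60 and its E′-box 79 bases before the start. The Tspan4 stretch is chr7:141476180-141476379 on the plus strand, a start among those listed for the gene, with an E-box 51 bases before the start. The Ddit4 stretch is chr10:59951771-59951970 on the minus strand, with an E′-box 188 bases before the start. Over windows of 300 bases (250 before to 50 after a start, both strands searched), the E-box stood in at least 1 window of 8.09% and the E′-box of 5.44% of 27025 genes (32851 windows in all), and 25 of the genes that changed could be matched to a window. Of those, 3 of 19 that rose and 1 of 6 that fell held an E-box, and 3 of 19 and 0 of 6 held an E′-box. Not shown are Mtx3, which fell and held an E-box 41 bases before its start, and Dlgap1 (E-box) and Nrg4 (E′-box), which rose. The ROR element core TAGGTCA was in 2.97% of all genes and 1 of 19 that rose, the D-box TTANNTAA in 6.93% and 1 of 19, and the palindromic glucocorticoid response element in 0.0518% and 0 of 19. The percentages are over every gene with a listed window, not only the genes tested here, so they are not a like-for-like background for the genes that changed. These letter matches are descriptions of the windows.

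Library totals without albumin lay between 12894426 and 12985958 counts, and 12772 genes were tested. Of those, 52.5% had a positive log2 change and the median change was 0.01. The KO library at 8 h with replicate number 2 held levels of clock genes unlike the other 3 of its group: Nr1d1 at 11.8 against 35.9 to 49.3 CPM and Dbp at 35 against 103 to 166 CPM. On a GC contrast, the median log2 deviation of the GC-richest 20% of genes minus that of the GC-poorest 20%, 3 libraries stood far out: WT at 12 h replicates 3 and 4 (1.13 and 1.08) and WT at 8 h replicate 2 (−0.79). The contrast averaged 0.139 ± 0.632 at 12 h and −0.133 ± 0.313 at 8 h (SD, n = 8 each; exact permutation test within genotype, two-sided, p = 0.308). Xist was counted 4988 to 13969 times in each library and Y-linked genes at most 1 time, while the design text calls the mice male. The gene-level count of Arntl does not separate the floxed exon from the others. It ranged from 0.833 to 11.7 CPM at 12 h and from 1.55 to 6.64 CPM at 8 h, and its highest values, 10.0 and 11.7 CPM, were in KO mice at 12 h, replicates 2 and 3.

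**Figure D1:**
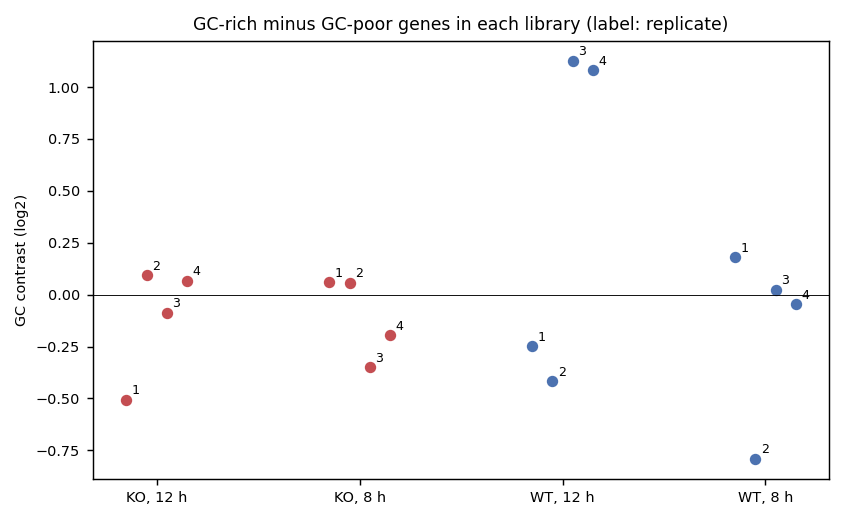
GC contrast of each of the 16 libraries (log2, y axis) by genotype and collection time (x axis), with points labelled by replicate number. The 2 highest points are WT at 12 h, replicates 3 and 4, and the lowest is WT at 8 h, replicate 2, while KO libraries lie between −0.51 and 0.09.

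Between 8 and 12 h, 29 genes rose and 9 fell. The genes that rose included the clock repressor gene Cry1, the glucocorticoid-induced Tsc22d3 and Ddit4, the fat synthesis genes Lpin1 and Thrsp, the glycogen gene Ppp1r3b and the monooxygenase gene Fmo5. The genes that fell included the AP-1 gene Junb, the bicarbonate transporter gene Slc4a4 and the immune checkpoint ligand gene Cd274. The test was edgeR's quasi-likelihood test with genotype as a covariate and Benjamini-Hochberg adjustment over the 12772 genes at 0.05, and the 38 genes past it were 0.298% of those tested (0.227% higher, 0.0705% lower). Log2 changes of the 29 genes lay between 0.54 and 2.11 with a median of 0.96, and those of the 9 between −1.53 and −0.58 with a median of −0.86. At an unadjusted p under 0.05 there were 1471 genes, 11.5% of those tested, 863 higher (6.76%) and 608 lower (4.76%). All 38 called genes changed in the same direction in both genotypes. The step over both genotypes together chose these genes, which favours a shared direction, and the share over all tested genes is not given. In 13 of the 29 all 8 libraries at 12 h were above all 8 at 8 h, which held for 18 genes or 0.141% of those tested, and in 4 of the 9 all were below, which held for 10 genes or 0.0783%. Leaving out 1 library moved the number called to as few as 10 (without WT at 8 h replicate 3), 24 (without KO at 8 h replicate 3) or as many as 82 (without KO at 8 h replicate 2), and 9 of the 38 genes were called in every one of those 16 fits (Cry1, Fmo5, St3gal5, Esr1, Junb, D16H22S680E, Gm10032, Gm826 and Gm9958). In a bulk tissue sample, fewer cells of a type and less RNA per cell cannot be told apart.

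**Figure D2:**
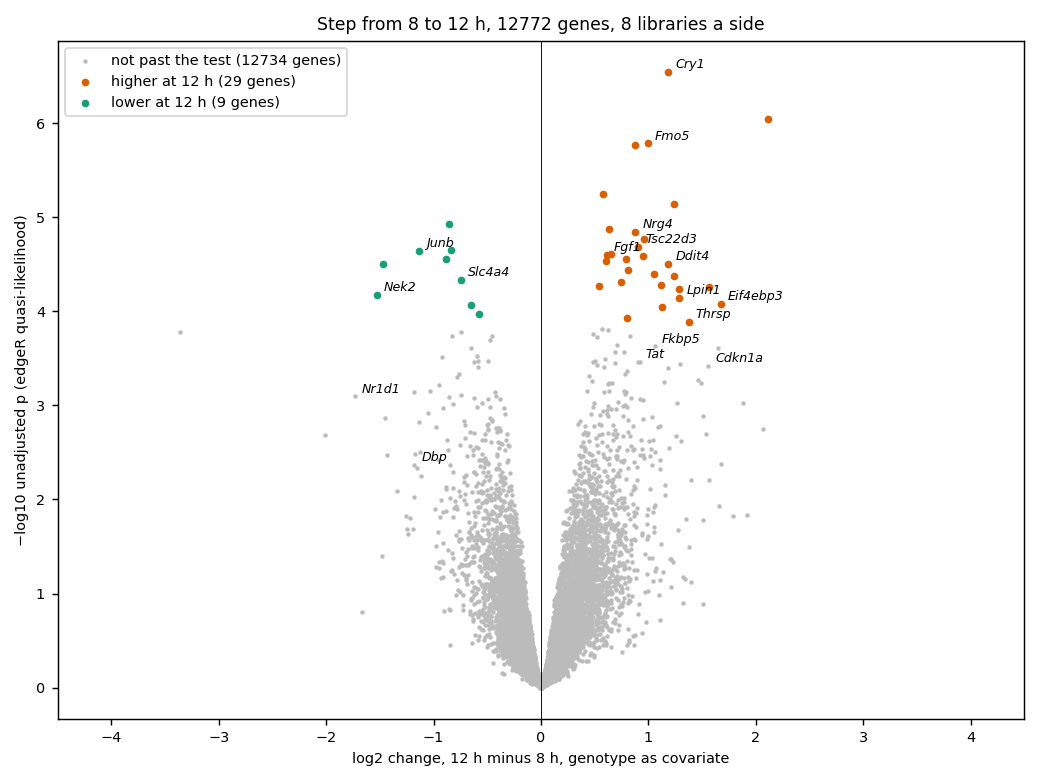
Log2 change of each of the 12772 genes, 12 h minus 8 h with genotype as covariate (x axis), against −log10 of the unadjusted p of edgeR's quasi-likelihood test (y axis). Coloured points are the 29 genes higher and the 9 lower past an adjusted p of 0.05, and Cry1 stands at the top.

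Cry1, which encodes a repressor of the CLOCK and BMAL1 pair, had the lowest p of all genes. Its level was 16.1 to 28.8 CPM (median 18.9) at 12 h and 6.00 to 11.9 CPM (median 8.47) at 8 h. No library of one time overlapped the other. The log2 change was 1.18 ± 0.15 (SE; adjusted p = 0.00362, edgeR's quasi-likelihood test), with 1.13 in KO and 1.24 in WT mice. The gene lies at chr10:84594447-84647799 in mm9.

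Of 19 core clock genes tested, 17 did not pass the test, with a median change of 0.07 over the list. Per2, a partner of CRY1 in repression, was at 63.8 to 118 CPM (median 66.5) at 12 h and 30.3 to 56.5 CPM (median 52.1) at 8 h. Its ranges did not overlap, yet the log2 change of 0.63 did not pass (adjusted p = 0.0904, edgeR's quasi-likelihood test). Nr1d1, the REV-ERBalpha gene, was at 4.01 to 31.6 CPM (median 8.14) at 12 h and 11.8 to 80.2 CPM (median 39.1) at 8 h. The ranges overlapped and the log2 change of −1.74 ± 0.43 did not pass (adjusted p = 0.107), although every library at 12 h was below the median at 8 h. With offsets for GC content Nr1d1 and Per2 both passed (log2 −1.92, adjusted p = 0.0186, and 0.50, adjusted p = 0.0303, edgeR's quasi-likelihood test). Dbp, a transcription factor gene driven by E-boxes, had a log2 change of −1.18 (adjusted p = 0.192) and Bhlhe41, an E-box repressor gene, −1.34 (adjusted p = 0.249). The other 13 had smaller values, all with adjusted p of at least 0.531 in edgeR's test: Per1 0.35, Nr1d2 −0.37, Cry2 0.25, Tef −0.16, Gm129 (an older symbol of Ciart) 0.42, Bhlhe40 0.20, Arntl 0.39, Nfil3 0.23, Clock −0.14, Hlf 0.07, Npas2 −0.16, Rora −0.06 and Per3 −0.05.

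**Figure D3:**
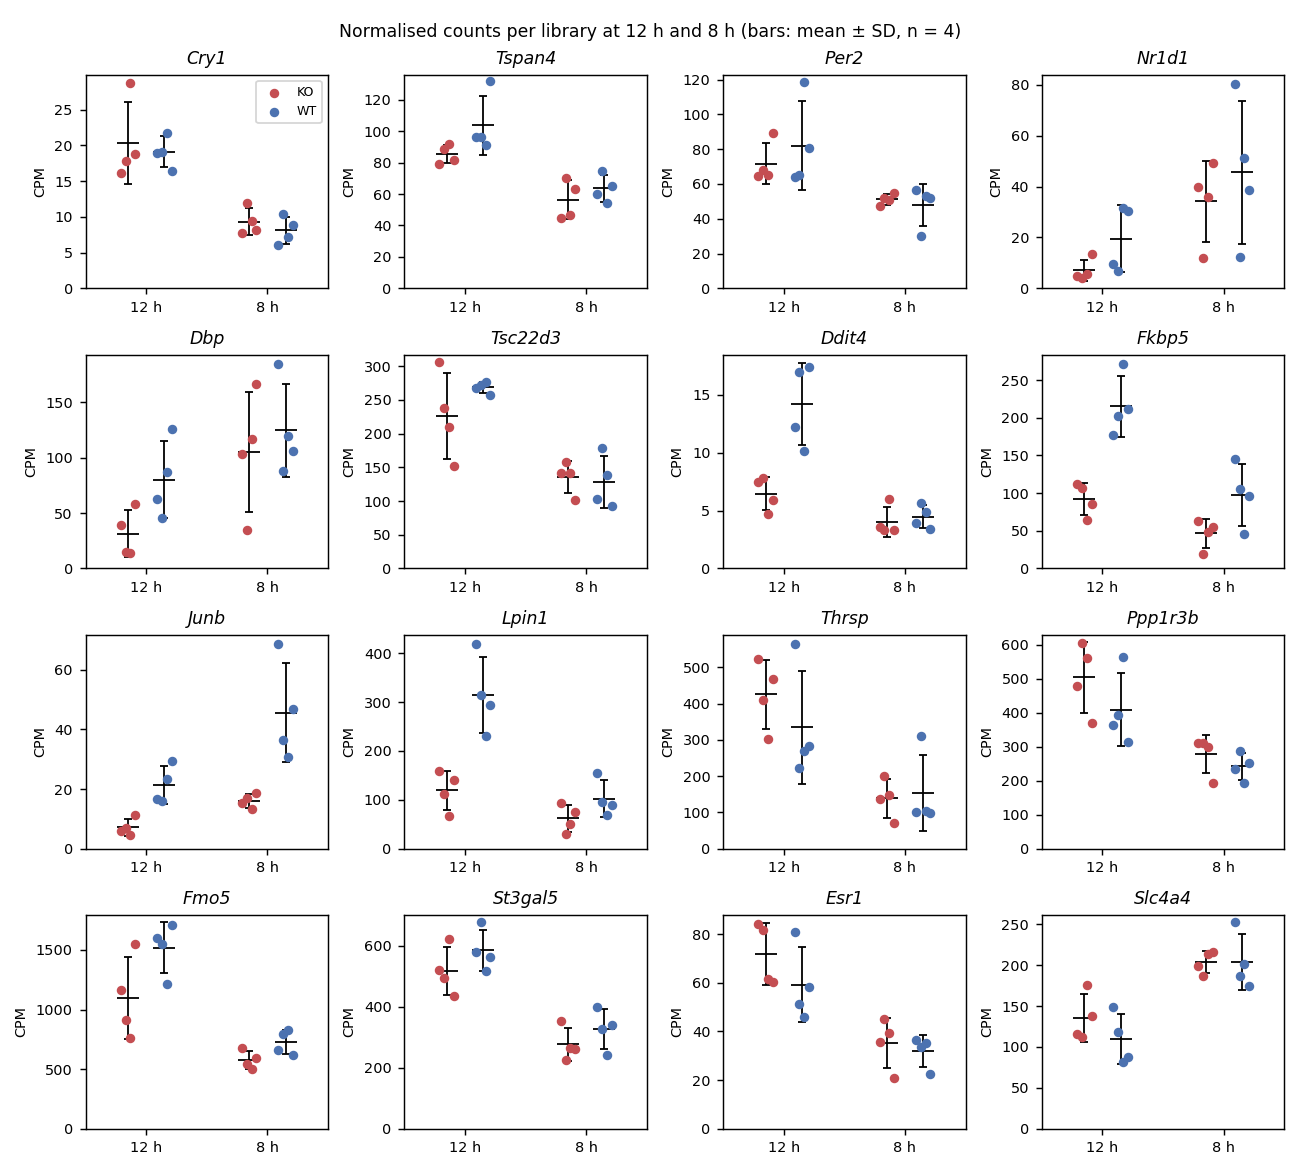
Normalised level (CPM, y axis, linear from 0) of 16 genes in each library at 12 h and at 8 h (x axis), with KO and WT points side by side and bars for the mean and SD of 4 libraries. Cry1, St3gal5, Tspan4, Esr1 and Ppp1r3b show no overlap between times, while Fkbp5, Dbp, Per2 and Nr1d1 did not pass the test.

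Of 29 genes on the clock output list, which holds genes known to follow the clock in liver, St3gal5 and Tspan4 rose, 25 had positive changes and the median was 0.27. Like the other lists, it was written with earlier results of these data known, so its counts are a description. St3gal5 encodes the sialyltransferase that makes the ganglioside GM3. It was at 434 to 678 CPM (median 542) at 12 h and 227 to 399.5 CPM (median 296) at 8 h, with no overlap, and its log2 change was 0.87 ± 0.12 (adjusted p = 0.00546, edgeR's quasi-likelihood test). Tspan4, a tetraspanin gene, was at 79.1 to 132 CPM (median 91.5) at 12 h and 45.0 to 75.0 CPM (median 61.8) at 8 h. Its libraries did not overlap either, and its log2 change of 0.65 passed (adjusted p = 0.0191) but not with GC offsets (0.52, adjusted p = 0.124) or without WT at 8 h replicate 3 (adjusted p = 0.0517).

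The glucocorticoid response and metallothionein list had the highest median change of the lists, 0.63, against 0.01 over all genes. The median was 0.43 in KO and 0.95 in WT mice, and 0.40 without the 3 libraries of extreme GC contrast. Of its 16 genes 15 had positive changes, and Tsc22d3 and Ddit4 passed the test. Tsc22d3 encodes GILZ, a glucocorticoid-induced regulator. It was at 153 to 306 CPM (median 263) at 12 h and 92.1 to 179 CPM (median 139.9) at 8 h. One KO library at 12 h lay within the range at 8 h, and the log2 change was 0.90 ± 0.16 (adjusted p = 0.0191, edgeR's quasi-likelihood test; 0.0517 without WT at 8 h replicate 3).

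Ddit4 encodes REDD1, an inhibitor of the mTORC1 growth pathway. In KO mice at 12 h it was at 7.47, 7.78, 4.74 and 5.88 CPM, and in WT mice at 12 h at 12.3, 17.0, 10.2 and 17.4 CPM. At 8 h it was at 3.55, 3.32, 5.97 and 3.32 CPM in KO mice and 3.93, 5.64, 4.84 and 3.42 CPM in WT mice. Every WT library at 12 h was above every library at 8 h, while the KO ranges met. The log2 change was 1.18 ± 0.21 (adjusted p = 0.0191, edgeR's quasi-likelihood test), and with GC offsets it was 1.06 (adjusted p = 0.0572). Without WT at 8 h replicate 3 the adjusted p was 0.053, and with all 48 libraries in the fit it was 0.557 (log2 1.16, edgeR's quasi-likelihood test). Fkbp5, which encodes a co-chaperone of the glucocorticoid receptor, was at 64.7 to 271 CPM at 12 h and 19.8 to 145 CPM at 8 h, with a log2 change of 1.06 that missed the threshold (adjusted p = 0.0602). Tat, the tyrosine aminotransferase gene, had a log2 change of 0.91 (adjusted p = 0.0693), and Cdkn1a, a cell cycle inhibitor gene, one of 1.56 (adjusted p = 0.0714).

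Of 27 lipogenesis and triglyceride synthesis genes 2 rose and 22 had positive changes (median 0.29). Lpin1 encodes a phosphatidate phosphatase of triglyceride synthesis. It was at 66.0 to 418 CPM (median 194) at 12 h and 28.9 to 155 CPM (median 81.6) at 8 h. WT mice held the 4 highest levels at 12 h, from 229.8 to 418 CPM, against 66.0 to 158 CPM in KO mice. The log2 change was 1.28 ± 0.25 (adjusted p = 0.0287, edgeR's quasi-likelihood test). Thrsp, or Spot 14, a regulator of fatty acid synthesis, was at 222 to 564 CPM (median 356) at 12 h and 70.6 to 309.5 CPM (median 120.3) at 8 h. Its highest library at 8 h, WT replicate 2, reached into the range at 12 h, and the log2 change of 1.37 ± 0.28 was near the threshold (adjusted p = 0.0436) and lost with GC offsets (1.29, adjusted p = 0.0613). Acacb, the mitochondrial acetyl-CoA carboxylase gene, did not pass (log2 0.92, adjusted p = 0.0693) but did with GC offsets (0.79, adjusted p = 0.0163). Calls of Lpin1 and Thrsp were lost in 9 and 12 of the 16 fits that left out 1 library, with adjusted p of up to 0.0821 (without WT at 8 h replicate 4) and 0.102 (without WT at 8 h replicate 3).

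Among 17 genes of glucose uptake and glycogen, Ppp1r3b rose and 14 had positive changes (median 0.19). Ppp1r3b encodes the subunit that directs protein phosphatase 1 to glycogen in liver. It was at 315 to 607 CPM (median 436) at 12 h and 194 to 311 CPM (median 269.5) at 8 h. The times did not overlap, and the log2 change was 0.81 ± 0.15 (adjusted p = 0.0209, edgeR's quasi-likelihood test; 0.053 without WT at 8 h replicate 3 and 0.0522 without KO at 12 h replicate 2). Of 22 genes of gluconeogenesis and amino acid breakdown 20 had positive changes (median 0.32) and none passed, with 6 at an unadjusted p under 0.05 and 2 called by DESeq2. Foxo1, a transcription factor gene of fasting glucose output, was closest (log2 0.69, adjusted p = 0.0638). Over all 12772 genes DESeq2 called 132 higher and 80 lower.

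Of 31 xenobiotic metabolism genes Fmo5 rose and 20 had positive changes (median 0.23). Fmo5 encodes a flavin monooxygenase. It was at 762 to 1711 CPM (median 1385) at 12 h and 498 to 828 CPM (median 641) at 8 h. Only the lowest KO library at 12 h fell within the range at 8 h, and the log2 change was 0.99 ± 0.14 (adjusted p = 0.00546, edgeR's quasi-likelihood test). Sult1a1, a sulfotransferase gene, was at 841 to 1136 CPM at 12 h and 529.8 to 837 CPM at 8 h. Its libraries did not overlap, and its log2 change of 0.52 missed the threshold (adjusted p = 0.0511).

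A further 7 genes rose. Esr1, the estrogen receptor alpha gene, was at 46.0 to 84.2 CPM (median 60.8) at 12 h and 20.8 to 45.2 CPM (median 35.4) at 8 h. No library overlapped, and the log2 change was 0.96 ± 0.16 (adjusted p = 0.0191, edgeR's quasi-likelihood test). Nrg4, which encodes a ligand of ErbB receptors, was at 13.0 to 31.3 CPM (median 24.2) at 12 h and 8.60 to 16.5 CPM (median 11.5) at 8 h, and its log2 change was 0.88 (adjusted p = 0.0191). Eif4ebp3, which encodes a binding protein of the translation factor eIF4E, was at 8.89 to 26.0 CPM (median 16.2) at 12 h and 1.55 to 9.38 CPM (median 4.81) at 8 h, with a log2 change of 1.67 ± 0.33 (adjusted p = 0.0321). Arrdc2, an alpha-arrestin gene, had a log2 change of 1.12 (adjusted p = 0.0244), Dlgap1, a scaffold protein gene with a mean of 1.49 CPM at 12 h and 0.628 CPM at 8 h, 1.23 (adjusted p = 0.0224), AA986860 1.57 (adjusted p = 0.0244), and D16H22S680E 0.57 (adjusted p = 0.0144). Arrdc2 lost its call with GC offsets (log2 0.98, adjusted p = 0.0592, edgeR's quasi-likelihood test). With 1 library left out, the adjusted p reached 0.0517 for Nrg4 (without WT at 8 h replicate 3), 0.0812 for Eif4ebp3 (without WT at 8 h replicate 1), 0.0667 for Arrdc2 (without KO at 8 h replicate 3), 0.0569 for Dlgap1 (without KO at 12 h replicate 2) and 0.0725 for AA986860 (without WT at 8 h replicate 1). Calls of Eif4ebp3, Arrdc2, Dlgap1, AA986860 and Nrg4 were lost in 11, 8, 6, 5 and 1 of those 16 fits.

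Another 11 genes rose. They lay outside the rule for named genes and were chosen after their values were seen. Gm10032 had the highest log2 change of all called genes, 2.11 ± 0.29 (adjusted p = 0.00546, edgeR's quasi-likelihood test), at 1.23 to 4.44 CPM at 12 h and 0.309 to 0.711 CPM at 8 h without overlap. Log2 changes of the other 10 lay between 0.54 and 1.24 (adjusted p between 0.0153 and 0.0409, edgeR's quasi-likelihood test). They were Gm826, 1810011O10Rik, Sema6b, Fhad1, Klhl25, Itgb3 (an integrin gene), BC016495, Fgf1 (a growth factor gene), Gde1 and Trp53inp2 (a regulator of autophagy). With 1 library left out, calls of Fhad1, 1810011O10Rik, Trp53inp2 and Itgb3 were lost in 11, 10, 7 and 5 of the 16 fits, and the rest in 0 to 2. With GC offsets Sema6b, Fhad1, Gde1 and Trp53inp2 lost their calls (adjusted p = 0.0658, 0.0525, 0.0858 and 0.0667), and the rest kept theirs.

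Of the 9 genes that fell, Junb was the only member of the 24 immediate early and AP-1 genes past the test, and 13 of the 24 had positive changes (median 0.04). In KO mice it was at 5.94, 6.86, 4.41 and 11.2 CPM at 12 h and at 15.2, 17.0, 13.2 and 18.8 CPM at 8 h. In WT mice it was at 16.5, 15.9, 23.4 and 29.4 CPM at 12 h and at 68.5, 36.5, 30.9 and 46.7 CPM at 8 h. Within each genotype the times did not overlap, and the log2 change was −1.14 ± 0.20 (adjusted p = 0.0191, edgeR's quasi-likelihood test).

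Slc4a4, which encodes a sodium bicarbonate cotransporter, was at 81.9 to 176 CPM (median 118) at 12 h and 174 to 253 CPM (median 200) at 8 h, and had a log2 change of −0.74 ± 0.14 (adjusted p = 0.0238, edgeR's quasi-likelihood test). Cd274, the PD-L1 gene, was at 1.39 to 3.05 CPM (median 2.57) at 12 h and 3.41 to 5.31 CPM (median 4.75) at 8 h. Its times did not overlap, and its log2 change was −0.89 (adjusted p = 0.0191). Mtx3, a mitochondrial outer membrane protein gene, was at 23.9 to 36.2 CPM at 12 h and 37.8 to 64.3 CPM at 8 h, also without overlap (log2 −0.65, adjusted p = 0.0321). Mtx3 lost its call with GC offsets (log2 −0.54, adjusted p = 0.0572, edgeR's quasi-likelihood test). Nek2, a centrosome kinase gene, had a log2 change of −1.53 (adjusted p = 0.0276) at 0.377 to 1.51 CPM at 12 h and 1.11 to 3.32 CPM at 8 h, and Rtn4rl1, a Nogo receptor homologue gene, one of −0.84 (adjusted p = 0.0191). With 1 library left out, the adjusted p reached 0.0605 for Slc4a4 (without KO at 12 h replicate 2), 0.0517 for Cd274 and Rtn4rl1 and 0.0749 for Nek2 (all without WT at 8 h replicate 3), and 0.0892 for Mtx3 (without KO at 8 h replicate 3). Calls of Slc4a4, Nek2 and Mtx3 were lost in 5, 8 and 9 of those 16 fits, and those of Cd274 and Rtn4rl1 in 1 each. The last 3 were Gm9958, Gm9992 and 4930420K17Rik, also outside the rule for named genes, with log2 changes between −1.48 and −0.58. Their calls were lost in 0, 1 and 12 of the 16 fits that left out 1 library. With GC offsets Gm9992 kept its call, while Gm9958 (log2 −0.65, adjusted p = 0.0858) and 4930420K17Rik (−0.36, adjusted p = 0.266, edgeR's quasi-likelihood test) lost theirs.

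Of 26 acute phase and inflammation genes 25 had positive changes (median 0.38), none passed edgeR's test, 14 had an unadjusted p under 0.05 and 3 were called by DESeq2. The DESeq2 counts of lists stand beside 132 genes called higher and 80 lower of all 12772. Itih4, a plasma protein gene, was at 1144 to 3798 CPM at 12 h and 788 to 1266 CPM at 8 h (log2 0.77, adjusted p = 0.187), and Lcn2, lipocalin 2, at 15.5 to 295 CPM at 12 h and 3.87 to 26.1 CPM at 8 h (log2 2.07, adjusted p = 0.144). The highest Lcn2 levels, 140.7 and 294.9 CPM, were in WT at 12 h replicates 3 and 4, and without the 3 libraries of extreme GC contrast its log2 change was 1.01 (adjusted p = 0.146, edgeR's quasi-likelihood test). Of 24 cholesterol synthesis genes 20 had positive changes (median 0.49, 0.31 in KO and 0.69 in WT mice), none passed, 9 had an unadjusted p under 0.05 and DESeq2 called 1. Without the 3 libraries of extreme GC contrast the cholesterol median was 0.23 and that of all genes 0.00. Of 27 interferon response genes 23 had negative changes (median −0.14), none passed, 7 had an unadjusted p under 0.05 and DESeq2 called 1 lower. Gbp6, an interferon-induced GTPase gene, had a log2 change of −1.05 (adjusted p = 0.124). Of 30 PPARalpha target and fatty acid oxidation genes 17 had positive changes (median 0.07) and none passed, with 2 higher and 3 lower at an unadjusted p under 0.05 and 1 called by DESeq2. Scaling by library totals alone put the median of all genes at −0.09, a shift of 0.11 on the log2 scale. Under it 23 acute phase, 18 cholesterol and 2 interferon genes were positive, and the medians of the core clock, PPARalpha and immediate early lists turned to −0.04, −0.04 and −0.07. Without the 3 libraries of extreme GC contrast these 3 medians were −0.01, −0.05 and −0.10, that of gluconeogenesis and amino acid breakdown was 0.15, and 9 of the 27 interferon genes were positive (median −0.17). With GC offsets the immediate early median was −0.08, with 9 of 24 positive.

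**Figure D4:**
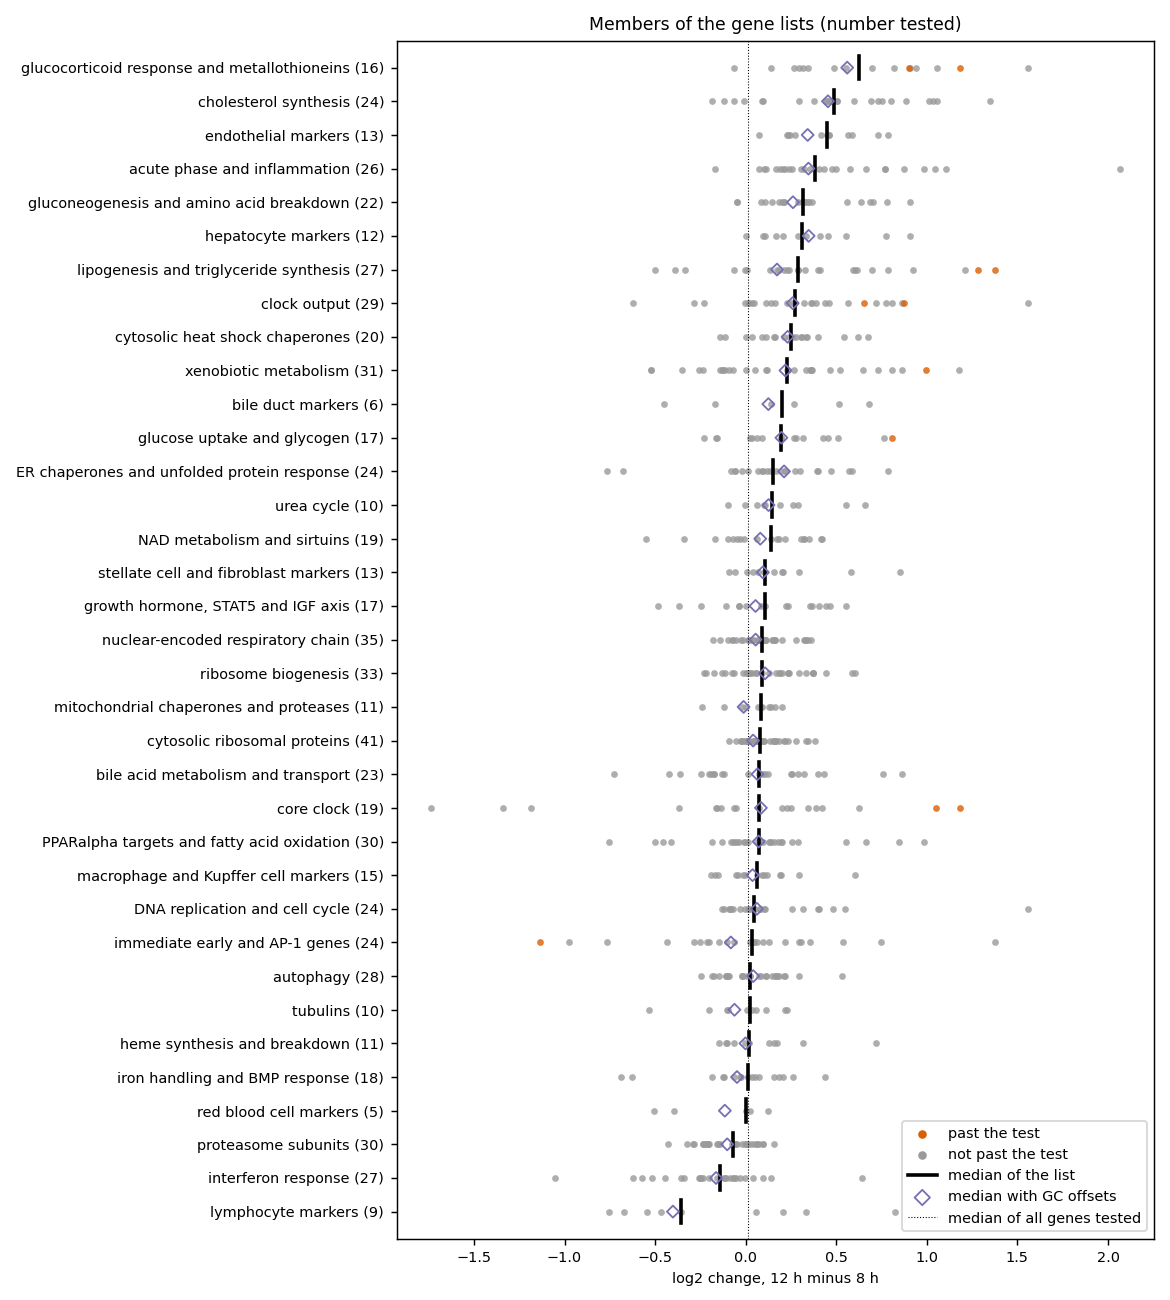
Log2 change, 12 h minus 8 h (x axis), of every tested member of lists with at least 5 tested genes (rows, number tested in brackets), ordered by median. Orange points passed the test, black bars are list medians, open diamonds are medians with GC offsets, and the dotted line is the median of all genes at 0.01. Glucocorticoid response genes have the highest median (0.63) and lymphocyte markers the lowest (−0.36).

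Marker genes of other cells were set beside these values. All 13 endothelial markers had positive changes (median 0.45), none passed the test, and 7 had an unadjusted p under 0.05. Their summed level was 279 to 373 CPM at 12 h and 185 to 347 CPM at 8 h. All 12 hepatocyte markers were also positive (median 0.31), with 4 at an unadjusted p under 0.05. Of 15 macrophage and Kupffer cell markers 8 were positive (median 0.06, with 0.32 in KO and −0.20 in WT mice; sums of 283 to 709 CPM at 12 h and 295 to 659 CPM at 8 h). Of 9 lymphocyte markers tested 4 were positive (median −0.36; sums of 11.3 to 308 CPM at 12 h and 17.5 to 39.0 CPM at 8 h). Ighm held 3531 of its 5758 counts in 1 library, and no other lymphocyte marker totalled more than 571 counts over the 16 libraries. Without the 3 libraries of extreme GC contrast 13 of the 15 macrophage markers were positive (median 0.32), and the medians were 0.17 for hepatocyte and −0.78 for lymphocyte markers. Of the pancreatic markers, Cela1 totalled 1711 counts over the 16 libraries and Cela2a 55, Cela3b, Prss2, Ctrb1 and Cpa1 totalled 1 to 3 each, and Pnlip was at 0. Of the adrenal markers, Star totalled 554 counts, Cyp21a1 51, Hsd3b1 10 and Cyp11a1 7, and Cyp11b1 was at 0. The part of cell composition in the list changes was not tested.

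Whether the step differed between KO and WT mice was tested as the genotype by time interaction. No gene passed, 0% of those tested, while 300 genes (2.35%) had an unadjusted p under 0.05 and DESeq2 called 0. In KO mice alone no gene passed (0%; 407 genes or 3.19% at an unadjusted p under 0.05, and 4 called by DESeq2). In WT mice alone 3 rose (0.0235%; 1608 genes or 12.6% at an unadjusted p under 0.05, and 137 called by DESeq2): Ddit4 at log2 1.67, Gm10032 at 2.50 and Sema6b at 1.29, each with adjusted p = 0.0454 in edgeR's quasi-likelihood test. With 1 library left out, 0 genes passed in 10 of 16 such fits, among them those without WT at 12 h replicate 4 and without any WT library at 8 h, and 132 passed without WT at 12 h replicate 2. Of the 38 called genes the KO change was smaller in size than the WT change in 25. The share of all tested genes with a smaller KO change is not given, so this count is only a description. Over all tested genes an unadjusted p under 0.05 was also rarer in KO than in WT mice, as given above. The 3 libraries of extreme GC contrast were all WT. Ddit4 changed by 0.68 in KO and 1.67 in WT mice, and Sema6b, a semaphorin gene, by 0.58 and 1.29. They were the only 2 of the 38 with an unadjusted interaction p under 0.05 (0.0135 and 0.0283, both with adjusted p = 0.962). The gene with the lowest interaction p was Poc1a, which encodes a centriole protein (KO minus WT difference of −1.503, adjusted p = 0.962, edgeR's quasi-likelihood test). Among the next were Cxcr6 (1.67), Meg3 (−3.12), Irf2bp2 (−0.86), Rian (−2.64), Nkd1 (−1.12) and Slc5a6 (−0.95), all with adjusted p = 0.962. Meg3 and Rian, non-coding RNAs of 1 imprinted locus, averaged 2.65 and 0.915 CPM in KO mice at 12 h, 4.94 and 2.14 CPM in KO mice at 8 h, 13.6 and 3.66 CPM in WT mice at 12 h, and 2.88 and 1.34 CPM in WT mice at 8 h. Per1, a clock gene, changed by −0.16 in KO and 0.84 in WT mice. Its interaction p was 0.00895 unadjusted (edgeR's quasi-likelihood test) and did not pass after adjustment. Without the 3 libraries of extreme GC contrast its step over both genotypes was 0.01, against 0.35 in the main fit.

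The step was then set against the steps on either side, from 4 to 8 h and from 12 to 16 h, in a fit of all 48 libraries (23 KO and 25 WT) and 13646 genes. These contrasts share the 8 h libraries, or the 12 h libraries, with opposite signs. There were 5 genes, 0.0366% of those tested (2 higher, 0.0147%, and 3 lower, 0.022%), whose change from 8 to 12 h differed from that between 4 and 8 h, all with adjusted p under 0.05 in edgeR's quasi-likelihood test. Tef, Per3 and Wee1, genes known to follow the clock, had a lower change from 8 to 12 h than in the step before. Mean Tef over both genotypes was 159.6, 354 and 316 CPM at 4, 8 and 12 h (difference of the steps −1.33 ± 0.24, adjusted p = 0.0226). Per3 was at 24.4, 87.9 and 84.5 CPM (−2.01, adjusted p = 0.0312), and Wee1, a cell cycle kinase gene, at 0.840, 6.39 and 6.39 CPM (−2.90, adjusted p = 0.0312). Arntl and the threonyl-tRNA synthetase gene Tars had a higher change than in the step before: Arntl was at 15.3, 2.91 and 4.18 CPM (2.68, adjusted p = 0.0312) and Tars at 115, 73.2 and 94.6 CPM (0.97, adjusted p = 0.0312). No member of this group was called in the step itself.

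The change from 12 to 16 h differed from that between 8 and 12 h in 8 genes, 0.0586% of those tested (7 higher, 0.0513%, and 1 lower, 0.00733%). Dtx4, a Notch pathway E3 ligase gene, was at 8.33, 6.33 and 16.3 CPM at 8, 12 and 16 h (difference of the steps 1.81 ± 0.30, adjusted p = 0.00743, edgeR's quasi-likelihood test). Npnt, Map4k4, Slc30a10, Csad, Rnd1 and Pnrc1 also had positive differences, from 1.38 to 3.99, with adjusted p between 0.0258 and 0.0494. Csad, an enzyme gene of taurine synthesis, was at 234, 101 and 240 CPM at 8, 12 and 16 h, so 12 h was its lowest of the 3. BC016495, called in the step, was at 62.7, 96.5 and 62.6 CPM and was highest at 12 h (−1.25, adjusted p = 0.0118). No gene passed this contrast when KO at 12 h replicate 4 or WT at 12 h replicate 4 was left out, and none passed without the 3 libraries of extreme GC contrast. For the contrast with the step from 4 to 8 h, 0 genes passed in 11 of 24 fits that left out 1 library (KO at 4 h replicates 1 and 2, KO at 8 h replicates 1, 3 and 4, KO at 12 h replicates 2 and 3, WT at 4 h replicate 2, or WT at 8 h replicates 1, 3 and 4), and 19 passed without KO at 8 h replicate 2.

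Over the 6 collection times, the 29 genes that rose had their highest mean at 12 h in 10 cases, at 16 h in 15 and at 20 h in 4, and their lowest at 0, 4, 8 or 20 h in 9, 13, 6 and 1. The 9 that fell had their highest mean at 0, 4 and 8 h in 2, 2 and 5 cases and their lowest at 12 or 16 h in 6 and 3. Cry1 went on to 50.5 CPM at 16 h and Tsc22d3 to 274 CPM. Since 12 and 8 h chose these genes, their levels at those times are a description.

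**Figure D5:**
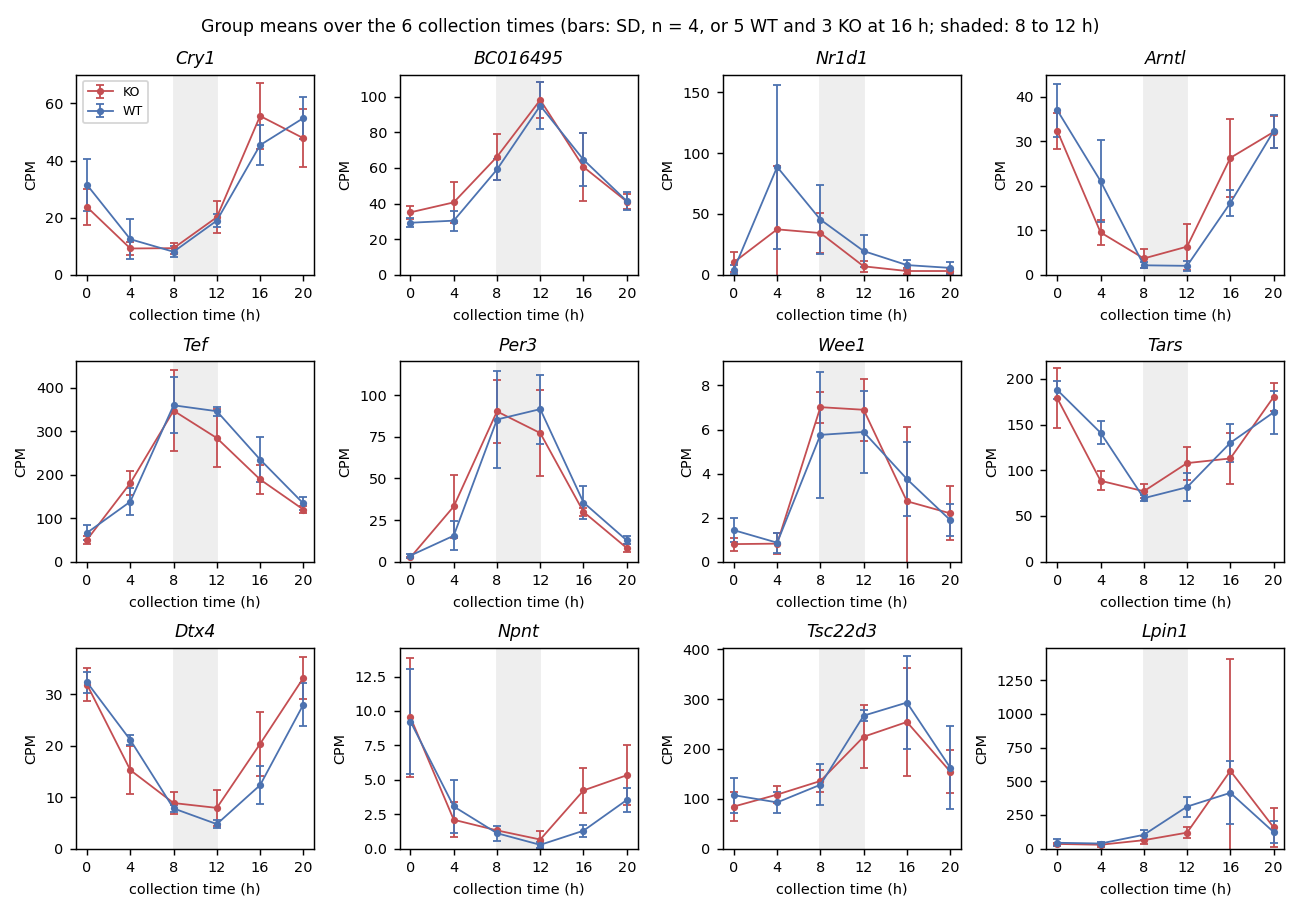
Mean level (CPM, y axis) of 12 genes at the 6 collection times (0 to 20 h, x axis), with KO and WT lines and bars for the SD of 4 libraries (5 WT and 3 KO at 16 h); the 8 to 12 h step is shaded. Cry1 has higher means at 16 h than at 12 h, BC016495 is highest at 12 h over both genotypes, Tef, Per3 and Wee1 have similar means at 8 and 12 h, and Dtx4 and Npnt are lowest at 12 h.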

How the data were processed

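Poly-A liver RNA was sequenced from separate mice per the labels' protocols, and genotype, time and replicate number came from the labels. The authors deposited 1 table of read counts per gene, and CASAVA, STAR 2.4.1d and the build mm9 are named in the submitters' processing notes. How reads were assigned to genes, and whether by strand, is not given in the sources, so overlapping, antisense and near-identical genes are uncertain. Totals are nearly equal across libraries, which does not show equal sequencing depth, and the intervals and tests cover the spread between these mice. The Alb row, a scaled value, was left out.

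Unless another test is named, tests used edgeR 4.0.16 (R 4.3.3). Genes needed a count of 10 and a total of 15 by the tool's filter, which kept 12772 and removed 9581 of 22353. TMM scaling and a quasi-likelihood model of genotype and time gave the step, and 4 group means gave each genotype and the interaction. A fit of 12 group means over 48 libraries gave the contrasts with the neighbouring steps. P-values were two-sided, with Benjamini-Hochberg adjustment across every tested gene (threshold 0.05). A standard error is the change divided by the square root of F, and levels are TMM-scaled CPM.

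The rule for named genes took the tested core clock genes, up to 5 members of each of the other pathway lists and 3 of each marker list by lowest p, the 12 largest changes and 8 lowest p per direction among called genes averaging 1 CPM or more without a predicted or clone name, the 8 lowest p of the interaction and the 5 lowest of each contrast with a neighbouring step. The text names fewer list members, and results of some genes are not reported here, though they count in the totals. The members and the 29 pathway and 10 marker lists were chosen with earlier results of these data known. On simulated counts for the step, 73.7% of changes of log2 1 and 99% of log2 2 were recovered, and 8 unchanged genes were called. The simulation had no outlying libraries and no GC differences between libraries, so these shares may not hold for the real counts. Alternatives were DESeq2 1.42.0, other scalings, no low-count filter, all libraries, a replicate block, the Alb row and leaving out each library. Added after seeing the data were offsets for GC content (20 bins, 97.93% of genes with a value from GENCODE transcripts) and fits without the 3 libraries farthest out on the GC contrast or 3 libraries with transcripts of other tissues or high Lepr. No pair of libraries of a group agreed within sampling noise (lowest chi-square per degree of freedom 23.45).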

Additional observations from a re-analysis of the deposited data

Results flagged for a closer look

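In groups of 4 libraries, 11 of 216 groups of a gene had 1 library far from the other 3 by Dixon's test at 95%, where chance alone gives about 1 in 20. There were 2 flags on each of KO at 12 h replicate 3 and WT at 8 h replicate 2, and 1 on each of 7 others. At 12 h, in KO mice, Per2 was at 89.2 CPM in replicate 4 against 64.3 to 67.7 CPM in the others, Bhlhe41 at 0.167 CPM in replicate 2 against 0.490 to 0.533 CPM, Sema6b at 6.17 CPM in replicate 1 against 4.18 to 4.5 CPM, Cd274 at 1.39 CPM in replicate 3 against 2.94 to 3.05 CPM, and BC016495 at 84.7 CPM in replicate 3 against 102 to 105 CPM. At 12 h, in WT mice, Tspan4 was at 132 CPM in replicate 4 against 91.3 to 96.1 CPM and Nrg4 at 31.3 CPM in replicate 2 against 23.6 to 24.9 CPM.

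At 8 h, in KO mice, Ddit4 was at 5.97 CPM in replicate 3 against 3.32 to 3.55 CPM and Ppp1r3b at 195 CPM in replicate 4 against 299 to 311 CPM. At 8 h, in WT mice, Per2 was at 30.3 CPM in replicate 2 against 52.2 to 56.5 CPM and Thrsp at 309 CPM in replicate 2 against 97.1 to 105 CPM. That WT library also had the lowest GC contrast.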

How the results depend on the processing

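The step called 38 genes. Under the alternatives it called 212 with DESeq2, 18 with all 48 libraries in the fit, 59 with offsets for GC content and 107 without the 3 libraries farthest out on the GC contrast, and 10 to 82 when 1 library was left out (10 without WT at 8 h replicate 3, 24 without KO at 8 h replicate 3, 82 without KO at 8 h replicate 2). Library totals alone called 47 genes, 21 higher and 26 lower. None of the 38 turned direction in any of the 25 alternatives, 5 were called in all of them, the GC offsets kept 27 and the fit of all 48 libraries kept 15. In the latter fit the adjusted p was 0.557 for Ddit4, 0.372 for Lpin1, 0.313 for Eif4ebp3 and Itgb3, and 0.169 for Junb, Nrg4 and D16H22S680E (edgeR's quasi-likelihood test). The KO step (0 called) gave 4 with DESeq2. The WT step (3 called) gave 137 with DESeq2, 6 without the low-count filter, 6 with GC offsets, 0 with library totals, 0 without the 3 GC libraries, and 0 to 132 with 1 library left out. The contrast with the step from 4 to 8 h (5) gave 47 with DESeq2, 2 with only the 3 times fitted, 3 without the 3 GC libraries and 0 to 19 with 1 library left out. The contrast with the step from 12 to 16 h (8) gave 24 with DESeq2, 5 with RLE size factors, 0 with only the 3 times fitted, 0 without the 3 GC libraries and 0 to 11 with 1 library left out. The interaction called 0 genes in all alternatives run. The cause of these shifts was not tested.

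Deviations of 8 pairs of the same genotype and replicate number correlated at −0.36 to 0.461, 4 over 0.1 and 3 with the highest value for their own number. So few pairs cannot settle whether the replicate numbers paired the mice, and the main fits used no pairing. With a replicate block the step called 34 genes, 32 of them among the 38, the WT step 0, the contrast with the step from 4 to 8 h 6 and that with the step from 12 to 16 h 5.

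Among genes that did not pass, changes turned sign as follows. Without the 3 GC libraries the log2 change was −0.0213 for Cry2, −0.0815 for Nfil3, 0.186 for Clock, −0.00901 for Hlf, 0.225 for Rora, −0.00565 for Atg9a, −0.0119 for Ass1, −0.0017 for Tuba1c, −0.169 for Tubg1, 0.0996 for Star and 0.0319 for Yme1l1. With GC offsets it was 0.000123 for Clock, 0.0338 for Rora and 0.0563 for Srsf5, with library totals −0.0407 for Hlf and −0.0417 for Rbm5, and with all 48 libraries 0.0618 for Npas2. With 1 library left out, values lay between −0.347 and 0.00545 for Npas2, −0.205 and 0.0575 for Rora, −0.155 and 0.0456 for Per3, and −0.237 and 0.0377 for Star.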
